A study of Oryzias latipes with 4 samples.

Results

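Genes for muscle contractile proteins and their relatives were examined in a block of medaka forebrain and pituitary. A gene belonged to the set where its protein description began with myosin, troponin, tropomyosin, parvalbumin, titin, nebulin, myoglobin, creatine kinase or actin, alpha. This rule found 130 genes on 305 rows of the table, among 20898 gene names and 62652 genes and unnamed features in all. The rule uses no measured level, and the RefSeq gene table holds each of the 130 identifiers. The RNA came from female medaka (Oryzias latipes), a teleost fish whose breeding follows day length, bought from a dealer. Strain, age and hours of light per day are not given in the labels. In the LD group, fish kept under short days were moved to long days and their tissue was taken 16 h later. In the SD group, fish stayed under short days throughout. Tissue of 6 fish was collected per condition, and each group has 2 libraries, called LD 1, LD 2, SD 1 and SD 2. How fish were pooled into libraries is not given, and the spread behind each p-value is that between libraries, which may be technical.

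Striated muscle shortens when myosin heavy chains pull on alpha-actin filaments, and troponin on tropomyosin sets when they may do so in answer to calcium. Titin and nebulin hold the filaments in register, M-type creatine kinase restores ATP at the filaments, beta parvalbumin takes up calcium in fast fibres and myoglobin binds oxygen. Neurons, glia, vessel walls and most other cells use members of the same families: B-type and mitochondrial U-type creatine kinase, the non-muscle heavy chains myosin-9 and myosin-10, and parvalbumins of particular neurons. A dissected brain block can therefore hold transcripts of either kind. By description, 75 members were striated muscle forms, 9 smooth muscle forms, 18 non-muscle and neural forms and 28 shared or undetermined forms. The last class held, among others, tropomyosins and myosin light chain kinases with no single tissue. It also held myosin heavy and light chain genes whose description has no tissue word, such as mmyhemb1.

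Levels are in FPKM, fragments scaled to the length of the feature and to the size of the library, summed over the rows of a gene. Summed FPKM of a library ranged from 458696.5 to 463065.7 over the whole table, and between 22556 and 22869 features reached 1 FPKM. Features above 0 were more numerous in SD 2 (39789) than in LD 1 (37623), LD 2 (37823) or SD 1 (37506). Read counts are not part of the table, so the depth behind a value is unknown and no counting interval is given. Neuron genes were abundant, with snap25 of the synaptic vesicle fusion machinery at 883 and 849 FPKM in LD 1 and LD 2 and at 868 and 874 in SD 1 and SD 2. The pituitary was present in the block too, with pomc, the precursor of several pituitary peptides, at 1384 and 1165 FPKM in the LD libraries and 1579 and 1374 in the SD libraries. For 40 of the 130 genes more than 1 row was above 0. Where such rows are pieces of 1 gene, their sum overstates the level of the transcript. Row values are given beside the sums for nebulin-like, the multi-row creatine kinases, the main myosin-10 gene and mprip, and other genes are given as sums. Reads that near-identical paralogs share, such as those of fast myosin heavy chains, cannot be assigned with certainty.

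Non-muscle and neural forms stood far above striated muscle forms. Their summed FPKM was 1907 in LD 1 and 1876 in LD 2, against 1658 in SD 1 and 1789 in SD 2. Striated muscle forms summed to 265 and 246 FPKM in the LD libraries and to 252 and 249 in the SD libraries. Most of the striated sum came from a pair of genes, nebulin-like and myoglobin. Without them, the other 73 striated genes together held 67.9 and 58.7 FPKM in the LD libraries and 59.8 and 80.0 in the SD libraries. None of these 73 genes averaged 10 FPKM, 55 averaged under 1 FPKM and 7 were listed at 0 in all 4 libraries. Nebulin-like and myoglobin were classed as striated by description alone, and which cells hold their transcripts was not tested. Of the non-muscle and neural forms, 9 of 18 averaged at least 10 FPKM, and so did 5 of 9 smooth muscle forms. These 5 were all light chain genes. The smooth muscle heavy chain genes averaged less, with 6.76 FPKM for myh11 and 1.16 for LOC101172658.

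**Figure D1:**
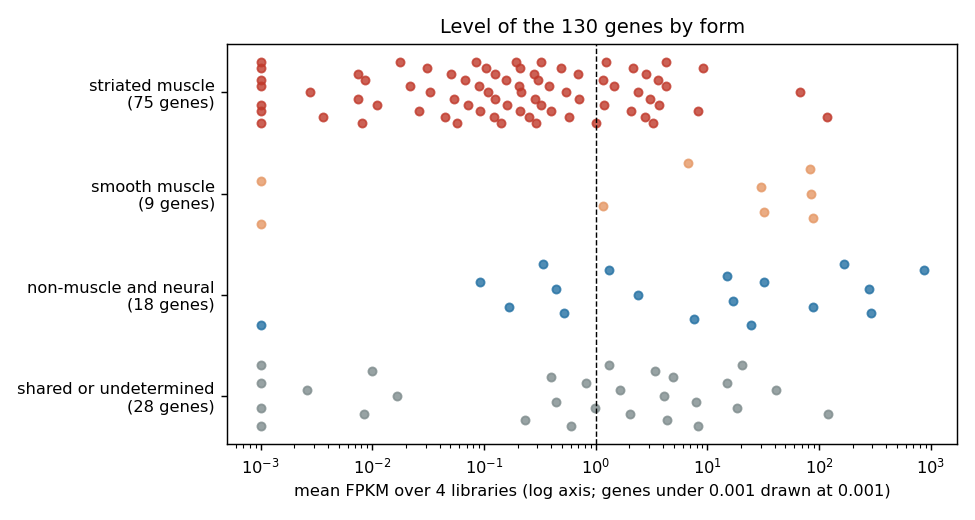
Mean FPKM over the 4 libraries (log axis) of each of the 130 genes, 1 point per gene, in rows by form; the dashed line marks the 1 FPKM needed for testing. Striated muscle forms lie mostly left of the line (55 of 75), and 2 of them lie above 10 FPKM.

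Myosin and alpha-actin genes of striated muscle each averaged under 10 FPKM. The 22 striated myosin heavy chains summed to 17.9 and 19.1 FPKM in the LD libraries and to 15.6 and 31.4 in the SD libraries, and 5 of them averaged at least 1 FPKM. Some of them, such as LOC101156287 (myosin-6), LOC101165018 (myosin-3) and LOC105353555 (myosin-7), have no tissue word and were counted as striated by their myosin number. Heavy chain genes described with neither a tissue word nor a myosin number are not in this sum. Such a gene, mmyhemb1, stood at 0.565 and 0.375 FPKM in LD and at 0.509 and 1.81 in SD. The 8 striated myosin light chains summed to 0.488 and 1.15 FPKM in the LD libraries and 0.745 and 0.447 in the SD libraries. Skeletal alpha-actin (acta1) stood at 0.722 and 0.883 FPKM in LD and at 0.615 and 0.621 in SD, which is below the filter for testing. Cardiac alpha-actin (LOC101159887), the most abundant of 4 alpha-actin genes, stood at 4.57 and 3.73 FPKM in LD and at 3.63 and 5.24 in SD.

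The giant filament proteins gave a mixed picture. Nebulin proper (neb), which spans the thin filament, stood at 0.713 and 0.408 FPKM in LD and 1.16 and 0.480 in SD. A gene described as nebulin-like (LOC101166998) was far more abundant, at 105 FPKM in both LD libraries, against 114 in SD 1 and 148 in SD 2. This is the sum of 3 rows on chromosome 20 between 3329776 and 3395889. The longest row stood at 58.9 and 58.8 FPKM in LD and 60.1 and 71.6 in SD, and the others at 23.5 and 22.8 in LD against 25.7 and 38.4 in SD, and at 22.5 and 23.5 in LD against 28.3 and 38.1 in SD. In each of the 3 rows the LD libraries lay below the SD libraries and SD 2 was the highest. Another row of the gene was listed at 0, and over all 4 rows, weighted by length instead of summed, the gene averaged 45.8 FPKM. On the summed values both LD libraries lay below both SD libraries for this gene (log2 change -0.31, SE 0.13, limma adjusted p = 0.784). The change was -0.49 without SD 1, -0.12 without SD 2 and -0.15 for its most abundant row alone. The 6 genes described as titin or titin-like summed to 2.74 and 1.74 FPKM in the LD libraries and 2.22 and 2.28 in the SD libraries. A gene described as a titin homolog (LOC101157556), counted with the striated forms by the word titin but outside that sum, stood at 4.38 and 4.14 FPKM in LD and 4.52 and 4.05 in SD.

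Troponins, the calcium switch of the thin filament, were present in traces. The 18 troponin C, I and T genes summed to 14.5 and 11.9 FPKM in the LD libraries and to 15.5 and 15.0 in the SD libraries, and 6 averaged at least 1 FPKM. The slow and cardiac troponin C gene (LOC101174831), the calcium-binding subunit, was the most abundant at 3.80 and 2.27 FPKM in LD and 2.74 and 4.37 in SD. Cardiac troponin T (LOC101158987), which anchors the complex to tropomyosin, stood at 3.19 and 2.06 FPKM in LD and 1.96 and 4.01 in SD. Fast troponin T (LOC101159792) stood at 1.71 and 3.05 FPKM in LD and 2.97 and 1.75 in SD. SD 2 was thus the highest library for the cardiac gene and LD 2 for the fast gene. Skeletal troponin C (LOC101171829) was at 1.67 and 1.54 FPKM in LD and 0.987 and 0.750 in SD, with no overlap between the groups (log2 change 0.48, SE 0.19, limma adjusted p = 0.783). Both SD values lie under 1 FPKM, so it passed the filter for testing through its LD values alone, and with a pseudocount of 0.1 the change was 0.82.

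Creatine kinase, which regenerates ATP from phosphocreatine, was divided between brain and muscle forms. The 2 B-type genes together averaged 1156 FPKM over the 4 libraries and the 3 M-type genes 9.37, a ratio of 123 on summed rows. Of the B-type genes, LOC101167262 on chromosome 24 stood at 947 and 881 FPKM in LD and 768 and 908 in SD as the sum of 2 rows. Its rows were at 517 and 430 FPKM in LD 1, 478 and 403 in LD 2, 429 and 339 in SD 1 and 498 and 409 in SD 2. In both rows SD 2 lay above LD 2, so the groups overlapped. Weighted by row length, the rows averaged 425 FPKM over the 4 libraries. The other B-type gene, ckb, a single row on chromosome 22, stood at 292 and 303 FPKM in LD and 267 and 258 in SD, with both LD libraries above both SD libraries. The most abundant M-type gene (LOC101163677) was at 14 and 5.82 FPKM in LD and at 6.12 and 11 in SD, so the groups overlapped. Among the mitochondrial forms, the U-type gene LOC101164721, of most tissues, stood at 306 and 316 FPKM in LD and 277 and 279 in SD as a sum of 2 rows. These were at 160.3 and 163 in LD against 146 and 148 in SD, and at 146 and 153 in LD against 131 in both SD libraries, so both rows had LD above SD. The S-type gene LOC101158039, of muscle, stood at 1.88 and 2.15 FPKM in LD and 2.84 and 1.68 in SD. This too is a sum of 2 rows, which averaged 1.20 and 0.941 FPKM over the 4 libraries.

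Parvalbumins, small calcium buffers, split in the same way. The 2 genes described as parvalbumin-7 summed to 189 and 207 FPKM in the LD libraries and to 168 and 172 in the SD libraries. The 2 parvalbumin beta genes, of the kind abundant in fish white muscle, summed to 1.12 and 1.64 FPKM in LD and 1.39 and 0.692 in SD, so the ratio of the means over the 4 libraries was 152. The main parvalbumin-7 gene (LOC101161860, chromosome 1, 24435519 to 24441156) stood at 174 and 188 FPKM in LD, against 153 and 152 in SD. Both of its LD libraries lay above both SD libraries. The second parvalbumin-7 gene (LOC101168466) showed no such order, at 14.7 and 18.6 FPKM in LD and 14.8 and 19.9 in SD. Thymic CPV3 parvalbumin (LOC101166797), named after a protein of the chicken thymus, lay lower in LD, at 6.76 and 6.51 FPKM against 8.48 and 8.57 in SD.

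**Figure D2:**
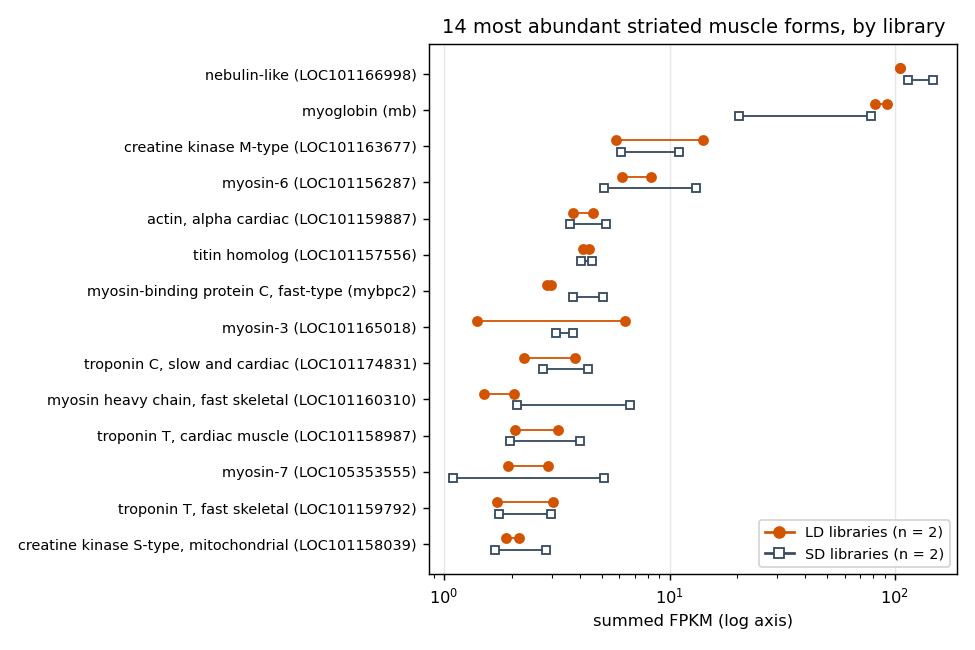
Summed FPKM (log axis) of the 14 most abundant striated muscle forms in each library; filled circles are the 2 LD libraries and open squares the 2 SD libraries of a gene, joined by a line. Nebulin-like and myoglobin stand apart on the right, and for 10 of the other 12 genes the LD and SD values overlap (37.2% of all units tested had no overlap).

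Myoglobin (mb, chromosome 1, 10694996 to 10699209) stood at 92.1 and 81.9 FPKM in LD, against 77.9 in SD 1 and 20.3 in SD 2. The LD libraries and SD 1 lay close together and SD 2 lay far below them, so the difference between the SD libraries exceeded that between either LD library and SD 1. The log2 change was 1.10 with an SE of 0.60 (limma adjusted p = 0.8). Without SD 1 it was 2.04 (limma adjusted p = 0.0591), and without SD 2 it was 0.15 (limma adjusted p = 0.77). In both of these fits the lone SD library is assumed to vary as the LD libraries do. Other striated genes went either way in SD 2. Of the 18 tested besides nebulin-like and myoglobin, 8 were highest in SD 2 and 5 were lowest there. The 8 included 3 of the myosin heavy chains described next, of which LOC105353555 and LOC101156287 draw mostly on neighbouring rows of chromosome 8. For both of these genes, LD 1 and SD 2 lay above LD 2 and SD 1. The same held for M-type creatine kinase, cardiac alpha-actin, slow and cardiac troponin C, cardiac troponin T and titin-like LOC110014323. Fast troponin T, S-type creatine kinase, parvalbumin beta (LOC101173896) and LOC101165018 had the reverse order, and the others neither. These orders were picked after the values were seen, so they carry no test.

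Myosin heavy chains, the motors of the thick filament, were also uneven between libraries. A fast skeletal heavy chain gene (LOC101160310, chromosome 5) stood at 2.05 and 1.5 FPKM in LD, against 2.11 in SD 1 and 6.66 in SD 2. Its log2 change was -0.82 (SE 0.44, limma adjusted p = 0.799), -1.47 without SD 1 and -0.17 without SD 2. A second fast skeletal heavy chain gene (LOC101158198, chromosome 8) was level across libraries, at 2.09 and 2.16 FPKM in LD and 2.08 and 2.02 in SD. A gene described as myosin-7 (LOC105353555), the slow and cardiac type of mammals, was at 2.90 and 1.93 FPKM in LD and 1.10 and 5.12 in SD. Next to it on chromosome 8, the row from 2759927 to 2765057 was at 8.11 and 5.09 FPKM in LD and 3.29 and 11.7 in SD. This row has its best hit in a myosin-6 gene (LOC101156287) on chromosome 20, with 79.8% of positions matched, so nearly all of the sum for that gene, 8.32 and 6.16 FPKM in LD and 5.15 and 13.1 in SD, comes from a locus on chromosome 8. A myosin-3 gene (LOC101165018) went another way, at 1.39 and 6.32 FPKM in LD and 3.71 and 3.15 in SD. Its class follows its most abundant row (mean 3.53 FPKM), while another row (mean 0.114 FPKM) is described as myosin-9. Fast-type myosin-binding protein C (mybpc2), which braces the thick filament, was at 2.86 and 2.98 FPKM in LD and 3.74 and 5.09 in SD, without overlap (log2 change -0.45, SE 0.16, limma adjusted p = 0.783). The change was -0.27 without SD 2 and -0.22 for its most abundant row alone.

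**Figure D3:**
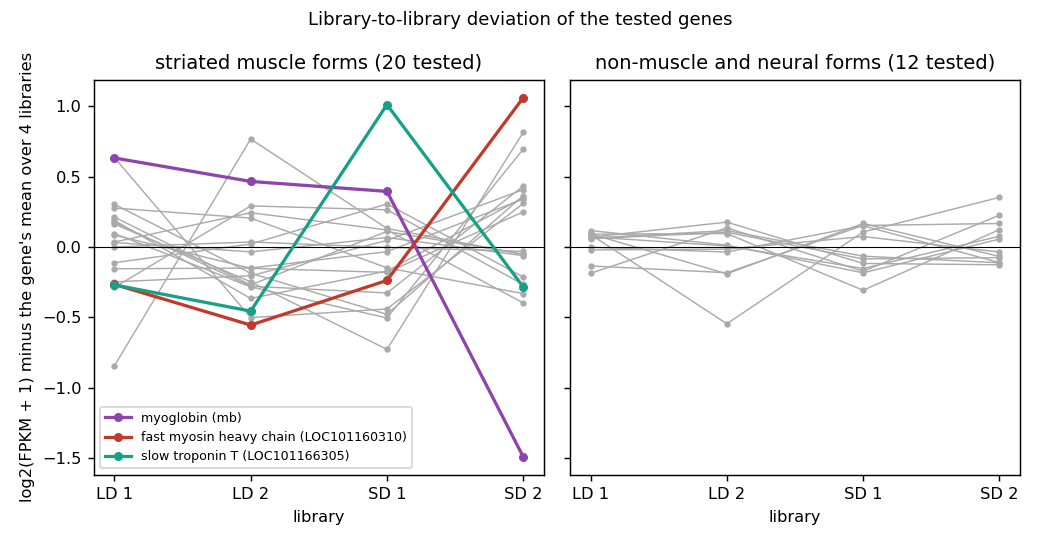
Deviation of log2(FPKM + 1) from the mean of the gene over the 4 libraries, 1 line per tested gene, for striated muscle forms (left, 20 genes) and non-muscle and neural forms (right, 12 genes). Lines fan out further on the left, with myoglobin low in SD 2, a fast myosin heavy chain high in SD 2 and slow troponin T high in SD 1.

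Spread between libraries was wider for striated forms than for the rest. For 11 of the 20 striated genes tested (55%) the highest library was at least 2-fold above the lowest, against 1 of 12 non-muscle and neural forms, 0 of 7 smooth muscle forms, 0 of 14 shared forms and 8.03% of all units tested. Among units with a mean of 1 to 10 FPKM, it was 10 of 18 striated genes (55.6%), against 1 of 14 genes of the other forms (7.1%) and 15.4% of all units. These counts hold LOC105353555 and LOC101156287 as separate genes, though their values come mostly from neighbouring rows on chromosome 8. Both were highest in SD 2, and whether their rows are pieces of 1 gene was not tested. Slow troponin T (LOC101166305) had the largest ratio of highest to lowest library of the 20, at 0.657 and 0.456 FPKM in LD, against 3.03 in SD 1 and 0.640 in SD 2. It passed the filter for testing through SD 1 alone, so a wide spread is part of how it came to be tested. The highest library was LD 1 for 4 of the 20 genes, LD 2 for 4, SD 1 for 3 and SD 2 for 9, against 22.7%, 23.6%, 27.7% and 26% of all units tested.

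Striated muscle genes that the rule did not choose gave a further reading of muscle in the block. Of 73 such genes, 22 averaged at least 1 FPKM and 9 were listed at 0 throughout. The muscle regulators myog, myf5 and myf6 were listed at 0 in all 4 libraries, and the regulator myod1 had 0.0149 FPKM in SD 2, with 0 listed for LD 1, LD 2 and SD 1. The calcium pump of fast fibres, atp2a1, stood at 0.0254 and 0.0193 FPKM in LD and 0.0421 and 0.153 in SD. The most abundant of the list were glycogen phosphorylase, muscle form (LOC101171113), at 158 and 150 FPKM in LD and 179 and 160 in SD, then ryr1, a calcium release channel, at 42.7 and 41.7 in LD and 42.5 and 42.2 in SD. A ryanodine receptor 3-like gene (LOC101172039) followed at 31.7 and 35.0 in LD and 37.3 and 34.2 in SD. In mammals all 3 are also expressed in brain. None of the 22 passed the threshold of 0.05 on the limma adjusted p, which 0.00587% of all units tested did, and their median log2 change was -0.06. Of the 22, none had an unadjusted p under 0.05, and 12 were highest in SD 1 (27.7% of all units) and 2 in SD 2 (26%).

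Of the 9 smooth muscle forms, 7 averaged at least 1 FPKM and 2 were listed at 0 in all 4 libraries. Both genes described as the smooth muscle minor form of regulatory light chain 2, which non-muscle myosins also use, stood above 80 FPKM: LOC101159052 at 92.1 and 87.9 in LD and 83.8 and 89.1 in SD, and LOC101165346 at 89.3 and 84.1 in LD and 80.9 and 82.6 in SD. Essential light chain genes of the polypeptide 6 kind were at 83.6 and 80.7 FPKM in LD and 77.1 and 88.9 in SD (LOC101167617) and at 30.5 and 29.9 in LD and 28.3 and 31.3 in SD (LOC101160287). Regulatory light polypeptide 9 (LOC101167032) stood at 39.2 and 30.3 FPKM in LD and 25.6 and 33.7 in SD. The polypeptide 6 and 9 genes have no tissue word in their description and were placed in this class by number. Which cells hold their transcripts was not tested. The smooth muscle heavy chain myh11, which marks contractile cells of vessel walls, was at 6.51 and 7.43 FPKM in LD and 5.81 and 7.29 in SD. Of the 7 smooth muscle forms tested, 6 had a log2 change above 0 (46.3% of all units did) with a median of 0.06, and SD 1 was the lowest library for 6, against 25.3% of all units tested. None passed the threshold or an unadjusted p of 0.05. In the list of other smooth muscle and mural cell genes, 13 of 21 were tested and none passed (5 higher, 8 lower, median -0.14). Of the 13, 1 had an unadjusted p under 0.05 (7.69%, against 6.34% of all units). This list had 7 genes without overlap (53.8%, against 37.2% of all units). Its leading genes were a transgelin gene (LOC101169057) at 72.1 and 62.7 FPKM in LD and 60.9 and 61.1 in SD, calponin-1 (cnn1) at 64.9 and 52.7 in LD and 55.7 and 63 in SD, and rgs5 (LOC101158097), a pericyte gene, at 52.3 and 46.7 in LD and 53.8 and 66.7 in SD.

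Non-muscle heavy chains, the motors of cell shape and division, had LD and SD values that overlapped for the 3 most abundant genes. The main myosin-10 gene (LOC101165692) was at 87.4 and 87.7 FPKM in LD and 93.4 and 86.5 in SD, of which its longest row held 60.0 and 59.2 in LD and 66.3 and 59.8 in SD, and the second (LOC101154782) at 31.9 and 31.1 in LD and 35.6 and 29.5 in SD. Myosin-9 (myh9) stood at 26.0 and 24.8 FPKM in LD and 22.1 and 26.1 in SD. Among shared forms, values also overlapped for 5 of the 6 most abundant genes. Overlap was the more common case over all units tested, of which 37.2% had none. The gene mprip, whose product ties myosin phosphatase to actin, was at 119 and 124 FPKM in LD and 117 and 121 in SD, of which its longest row held 81.2 and 81.7 in LD and 77.3 and 78.1 in SD. Further genes of that description were at 41.9 and 37.5 in LD and 41.1 and 45.9 in SD (LOC101161759) and at 16.9 and 13.2 in LD and 13.9 and 16.6 in SD (LOC101160410). The tropomyosin genes, which lie along actin in all cells, included tpm4 at 22.4 and 20.3 FPKM in LD and 17.0 and 22.4 in SD and LOC101164789 (alpha-1 chain) at 20.1 and 18.2 in LD and 16.0 and 19.2 in SD. A tropomyosin beta gene (LOC101172748) was at 11.6 and 7.60 FPKM in LD and 7.38 and 6.10 in SD, with no overlap between the groups.

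**Figure D4:**
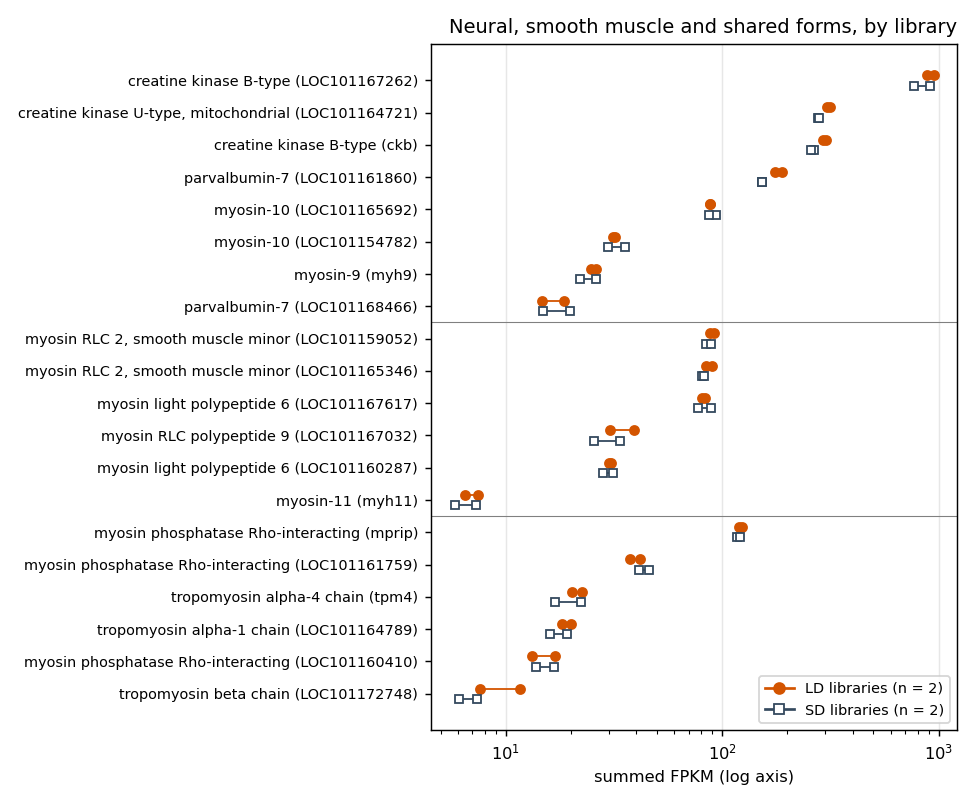
Summed FPKM (log axis) of the 8 most abundant non-muscle and neural forms (top block), 6 smooth muscle forms (middle) and 6 shared forms (bottom) in each library; filled circles are LD and open squares SD libraries, joined per gene and group. The U-type creatine kinase, ckb, the main parvalbumin-7, a regulatory light chain 2 gene (LOC101165346) and the tropomyosin beta gene show both LD libraries to the right of both SD libraries.

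The comparison of LD with SD asks which genes differ 16 h after the change to long days. It was fitted with limma on log2(FPKM + 1) over all 17030 genes and unnamed features that averaged at least 1 FPKM, and 53 of the 130 members passed that filter: 20 striated, 7 smooth muscle, 12 non-muscle and neural and 14 shared forms. None of the 53 passed the threshold of 0.05 on the limma adjusted p, where 0.00587% of all units did, which is 1 gene (LOC101171460, somatotropin). At an unadjusted p under 0.05 there were 7 members (13.2%, against 6.34% of all units), 4 higher in LD (2.55% of all units were) and 3 lower (3.79%). The log2 change was above 0 for 23 members and for 46.3% of all units. The groups did not overlap for 15 members (28.3%, against 37.2% of all units). Of these, 8 were higher in LD (16.4% of all units were) and 7 lower (20.9%). The median log2 change was -0.02 for the 53 members and -0.01 for all units. It was -0.07 for striated, 0.06 for smooth muscle, 0.02 for non-muscle and neural and -0.05 for shared forms. With 2 libraries against 2, a two-sided exact permutation test of a single value cannot go below 0.333.

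Of the 7 members, 4 were non-muscle and neural forms. The main parvalbumin-7 gene (LOC101161860) had a log2 change of 0.24 (SE 0.07), ckb of 0.18 (SE 0.06) and the U-type creatine kinase LOC101164721 of 0.16 (SE 0.06), and the limma adjusted p was 0.782 for the first pair and 0.783 for the third. Thymic CPV3 parvalbumin (LOC101166797) had a log2 change of -0.32 (SE 0.09, limma adjusted p = 0.782). The other B-type gene, LOC101167262, had 0.13 (SE 0.10) with groups that overlapped, and the value was 0.077 without LD 1, 0.0087 without SD 1 and 0.25 without SD 2. Over all 12 tested non-muscle and neural forms, 6 were higher and 6 lower in LD. Of 26 neuron genes tested outside the rule, 21 had a log2 change above 0 (46.3% of all units did) with a median of 0.05. None of them passed the threshold, and 1 had an unadjusted p under 0.05 (3.85%, against 6.34% of all units). Synaptotagmin (syt1), the calcium sensor of vesicle release, stood at 450.0 and 469 FPKM in LD and 453 and 428 in SD, and the membrane glycoprotein M6-a gene (LOC101155741) at 436 and 443 in LD and 410.2 and 382 in SD. The part of this in the values of the neural forms was not tested. In a bulk sample, fewer cells of a type and less RNA per cell cannot be told apart.

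**Figure D5:**
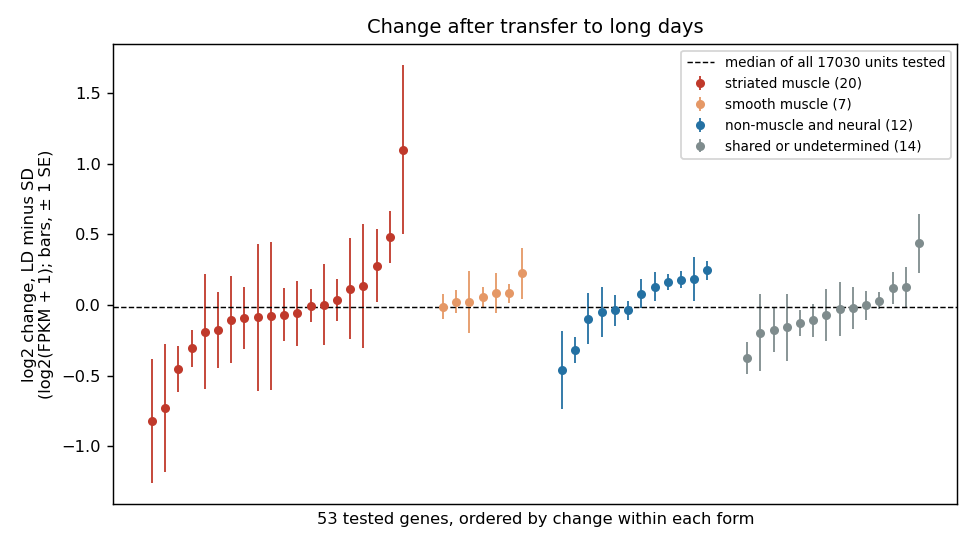
Log2 change, LD minus SD, of log2(FPKM + 1) with bars of ± 1 SE from limma for the 53 tested genes, ordered by size within each form; the dashed line is the median of all 17030 units tested. Bars are longest among striated forms, where myoglobin is the highest point at 1.10 and a fast myosin heavy chain the lowest at -0.82.

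The remaining members with an unadjusted p under 0.05 were mybpc2 and skeletal troponin C (LOC101171829), given above, and mylk4. The last encodes a kinase of the myosin light chain kinase family and stood at 3.43 and 3.45 FPKM in LD, against 4.67 and 4.84 in SD (log2 change -0.37, SE 0.11, limma adjusted p = 0.782). Genes listed for skin, cartilage and bone were read as well, and whether their transcripts came from such tissue was not tested. Of the 43, 20 were tested, with 10 on each side of 0 and none past the threshold. Of the 20, 4 had an unadjusted p under 0.05 (20%, against 6.34% of all units) and 8 had no overlap (40%, against 37.2%). Their leading genes were keratin 8 (LOC101168366) at 173 and 124 FPKM in LD and 168 and 154 in SD, sparc at 138 and 109 in LD and 130 and 134 in SD, and keratin 18 (LOC101168952) at 125 and 100.2 in LD and 117 in both SD libraries. Red blood cell genes had 6 of 12 tested, all 6 with a log2 change above 0 (46.3% of all units did), with a median of 0.15. The LD and SD values overlapped for all 6 (37.2% of all units had no overlap). SD 1 was the lowest library for 4 (25.3% of all units). None of the 6 passed the threshold or an unadjusted p of 0.05. The part of red blood cell genes in the values of the members was not tested. The beta globin gene gb stood at 7278 and 5474 FPKM in LD and 4571 and 6463 in SD, an embryonic alpha globin gene (LOC101174997) at 1836 and 1924 in LD and 1498 and 1894 in SD, and the erythroid 5-aminolevulinate synthase gene (LOC100049501) at 132 and 84.5 in LD and 87.6 and 117 in SD. In the pituitary hormone list, which also took in prolactin receptors, 18 of 19 were tested, 9 on each side of 0. Of the 18, 3 had an unadjusted p under 0.05 (16.7%, against 6.34% of all units) and 6 had no overlap (33.3%, against 37.2%). The single call of the list was somatotropin, at 263 and 274 FPKM in LD and 914 and 866 in SD (0.00587% of all units were called). The most abundant gene of the list was prolactin-1 (LOC101172582), at 1825 and 3536 FPKM in LD and 3900 and 3743 in SD.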

How the data were processed

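Poly(A) RNA of 2 LD and 2 SD libraries was made into libraries with a stranded TruSeq kit, as the labels' protocols state. The submitters' processing notes list HISAT2 2.0.5 and StringTie 1.3.3b, with no roles. For the genome build, the sources used here give none. Coordinates are those of the deposited table. The authors deposited 1 table with 1 FPKM column per library, a locus, a length and a best hit for each of 93896 rows, per the file headers.

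FPKM values of rows sharing a gene name were summed, and rows without a hit (41754) stayed separate. Names come from the hit, whose location overlaps the row for 89.0% of rows with a hit and for 280 of the 305 rows of the members. RefSeq identifiers were checked against assembly ASM223467v1. Units with a mean of at least 1 FPKM were fitted on log2(FPKM + 1), which understates the change of low genes, with limma 3.58.1 (R 4.3.3) with group as the only term and a trend of variance on level. Two-sided p-values were adjusted over all units by Benjamini-Hochberg. The fit was also run on simulated data, but the outcome is not given here and no result rests on it.

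Members, lists and forms were chosen with earlier results of these data known. Forms follow words, or the number of a myosin, in the description of the most abundant row of a gene. Lists outside the rule were matched on the start of the description, ending at a word boundary. Values in every library are given for the 14 striated, 6 smooth muscle, 8 neural and 6 shared genes with the highest mean, for the 4 genes per direction with the smallest p among those without overlap, and for the 3 leading genes of each list. Other genes (among them acta1, neb, mmyhemb1, LOC101158198, LOC101166305, the titin sum and the muscle regulators) were named after their values were seen. No sequence is shown, since none was used here.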

Additional observations from a re-analysis of the deposited data

How the results depend on the processing

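No member passed the threshold in any of the 13 alternatives. Over 11 members and these alternatives, 139 values kept their direction and stayed short of the threshold. Except for LOC101167262, the groups of these members do not overlap, so leaving out 1 library could not reverse them. Runs that changed the filter, the variance model or the block return the same log2 change. In such runs the kept direction was fixed in advance. With rows not summed, each value is that of the member's most abundant row. The count over all genes, 1 in the report, was 0 with no filter, 0 without a trend, 7 with rows not summed and 2 with gene names used where the hit overlaps the row. It lay between 0 and 4 when 1 library was left out. The single call of the pituitary list was lost with no filter, without a trend and with the block (0 each), and the count ranged from 0 to 1 when 1 library was left out. In the other lists the count was 0 under every alternative. With the replicate number as a block, 0 genes and 0 members passed. Deviations of same-numbered libraries correlated at 0.039, and nothing says that the numbers pair the samples. The mean summed FPKM of striated forms, 253 in the report, was 244 with overlapping hits, 135 without its highest member and, in a run added after seeing the data, 66.6 without nebulin-like and myoglobin. That of the neural forms, 1808, was 932 without its highest member. Depth is unknown, so how far counting error adds to the spread of low genes was not tested.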

Other observations

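Unconventional myosins carry cargo or tether membranes in neurons and hair cells. The rule leaves out those whose description begins with the word unconventional, and these were read after the values were seen. The genes described as myosin-IIIa (myo3a), myosin-IIIb (myo3b) and myosin XVB (myo15b) met the rule and were counted with the shared forms. Of 38 genes, 26 were tested and none passed the threshold (9 higher and 17 lower in LD, where 46.3% of all units were higher, and 3 with an unadjusted p under 0.05, as had 6.34% of all units). A myosin-VI gene (LOC101175525), a motor that moves toward the minus end of actin, stood at 15.0 and 15.2 FPKM in LD, against 22.5 and 22.8 in SD (limma adjusted p = 0.406). The myosin-V gene myo5a, a carrier of vesicles in neurons, stood at 32.0 and 33.8 FPKM in LD and 32.6 and 33.0 in SD.

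Myoglobin was 1 of 6 units among 17030 whose SD 2 value was above 0 and lay at least 3-fold below each of the other 3 libraries, with those at 5 FPKM or more. Counts of the same kind were 0 for LD 1, 2 for LD 2 and 5 for SD 1. The others for SD 2 were LOC101166004, an uncharacterized gene, at 17.2 and 15.0 FPKM in LD and 16.4 and 0.528 in SD, the zinc finger gene LOC101169270, iqcb1 and a pair of unnamed features. In the opposite direction there were 3 units for LD 1, 12 for LD 2, 13 for SD 1 and 5 for SD 2. Those of SD 2 included the fast myosin heavy chain LOC101160310 and cabp5, a calcium-binding protein gene, at 3.46 and 4.44 FPKM in LD and 2.59 and 15.2 in SD. These units were picked for their values, so they carry no test.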
